A study of Arabidopsis thaliana with 2 samples.

Results

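The heat shock proteins and heat shock factors of Arabidopsis thaliana roots were followed under aluminium. They were taken as the array's probes whose gene description contains the words heat shock, without the 3 endoplasmic reticulum BiP genes. This gave 176 genes with 1 probe each among the 21500 probes of both arrays, and 171 of them could be tested among 19194 genes. Roots of 10-day-old seedlings of the accession Col-0, with no transgene or mutation in the labels, received 10 µM AlCl3 during 6 h at pH 5.0, and control roots received no AlCl3 at that pH. Before this, all seedlings grew in hydroponics at pH 5.5, in MGRL medium at 2% strength and CaCl2 at 200 µM, with 12 h of light per day and a temperature of 23 °C. Each of the 2 arrays carried RNA of aluminium-treated roots and of control roots in different colours. The aluminium RNA was labelled with Cy3 on replicate 1 and with Cy5 on replicate 2. The labels call the arrays biological replicates but do not say whether they came from separate cultures, so p-values measure only the spread between these samples. Dye orientation, array layout and scanner software also differ between the arrays, so that these and the replicate cannot be told apart.

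Heat shock proteins are molecular chaperones. Small heat shock proteins hold unfolding proteins in solution, HSP70 proteins fold them with the help of J-proteins, HSP90 proteins complete the folding of signalling proteins, and HSP100 proteins pull aggregates apart. Heat shock factors are the transcription factors that bind heat shock elements in front of these genes. In plants, class A factors activate, class B factors mostly lack an activation domain and several repress, and class C factors are little studied. Many chaperones are made at all times and only some are strongly induced by heat or by other agents that unfold proteins. No sequence is shown, because probe, promoter and protein sequences were not used here.

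Most heat shock genes did not pass the test, and those that did came from 5 of the 7 classes. Of the 171 genes tested, 15 were higher and 5 lower in aluminium roots than in control roots at an adjusted p under 0.05 (limma, Benjamini-Hochberg over all genes tested). That is 8.77% higher and 2.92% lower, beside 8.25% higher and 6.48% lower among all 19194 genes tested. The share of higher genes was thus near the background, and that of lower genes was under it, a difference that was not tested. The 15 higher genes were 5 heat shock factors, 3 HSP70 genes, 6 J-protein genes and 1 small heat shock protein gene. The 5 lower genes were 2 factors, 1 HSP70 gene, 1 HSP90 gene and 1 J-protein gene. The median log2 ratio of aluminium over control was 0.055 over the tested members and 0.0022 over all genes. The calls depend on how background and dyes were handled: 7 genes were higher and 0 lower with median centring in place of loess, 4 and 0 without the normexp offset, 1 and 0 with the scanner software's ratios, and 0 and 0 with the authors' series matrix values. At an unadjusted p under 0.05 these same 4 settings gave 14, 30, 31 and 31 higher members and 5, 13, 13 and 12 lower ones, against 29 and 14 in the limma test above. Over all genes the same cut-off gave 1567, 2791, 2659 and 2552 higher and 1276, 2541, 2545 and 2521 lower, against 3098 and 2787. These counts are of 171 members and 19194 genes, but of 166 and 18659 with the series matrix values. All 20 called genes had the same sign on both arrays, which a test of 2 ratios against 0 nearly requires, so it adds no further evidence.

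**Figure D1:**
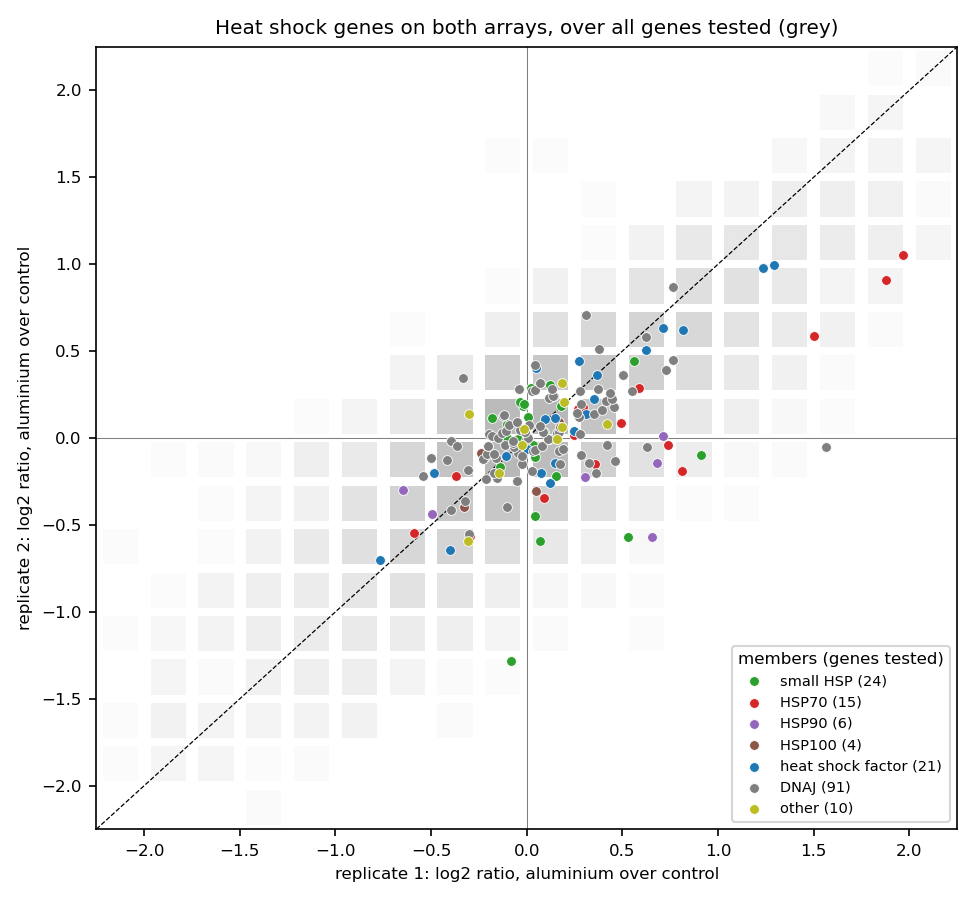
Log2 ratio of aluminium over control on replicate 1 (x axis) and on replicate 2 (y axis) for the 171 tested heat shock genes, coloured by class, over squares that are darker where more of the 19194 tested genes lie. The HSP70 genes ERD2, HSC70-2 and HSC70-3 lie far right and under the dashed line of equal ratios, and several HSP70, HSP90 and small heat shock protein genes lie right of 0 on replicate 1 and at or under 0 on replicate 2.

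Among the heat shock factors, 5 of 21 (23.8%) were higher and 2 (9.52%) lower in aluminium roots, beside 8.25% and 6.48% of all genes tested. The difference in these shares was not tested. Of the 21 factors, 13 had positive ratios on both arrays, as had 6937 of all 19194 genes tested. The highest was HSFA1E (AT3G02990), one of the class A1 factors. Its normalized signal, in arbitrary units, was 463 and 389 in aluminium roots on replicates 1 and 2, against 189 and 195 in control roots. The log2 ratios were 1.296 and 0.99, with a mean of 1.14 ± 0.11 (limma standard error, n = 2), a 2.21-fold rise with an adjusted p of 0.00704. Aluminium signals lay above control signals on both arrays without overlap. The other class A1 factors did not pass the test: HSFA1A (AT4G17750) had log2 ratios of 0.15 and 0.12, HSFA1B (AT5G16820) of 0.27 and 0.45 and HSFA1D (AT1G32330) of 0.076 and -0.20. HSFA1E was thus the only A1 gene called, though a difference between it and the other 3 was not tested.

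HSFA8 (AT1G67970), another class A factor, had signals of 736 and 703 in aluminium roots on replicates 1 and 2, against 313 and 357 in control roots. Its mean log2 ratio was 1.11 ± 0.11 (2.15-fold, adjusted p = 0.00677). HSFA6B (AT3G22830), a factor that links abscisic acid signalling with heat tolerance, had signals of 443 and 458 in aluminium roots, against 287 and 323 in control roots, with a mean log2 ratio of 0.57 ± 0.10 (adjusted p = 0.0235). In each of these genes both aluminium signals exceeded both control signals. The remaining class A factors lay between -0.34 and 0.36 in mean log2 ratio. HSFA2 (AT2G26150), the factor most strongly induced by heat and the keeper of acquired thermotolerance, had signals of 184 and 467 in aluminium roots, against 169 and 559 in control roots. Its log2 ratios of 0.12 and -0.26 had opposite signs (adjusted p = 0.776), and the arrays differed from each other more than the treatments did. HSFA4C (AT5G45710) came closest to the threshold among factors that were not called, with log2 ratios of 0.37 and 0.36 (adjusted p = 0.0624; it is named after its values were seen).

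Class B and C factors changed in both directions. HSFB3 (AT2G41690), a class B factor, had signals of 182 and 199 in aluminium roots, against 103 and 129 in control roots, with a mean log2 ratio of 0.72 ± 0.10 (adjusted p = 0.0153). HSFB2A (AT5G62020), a class B factor closely related to the repressor HSFB2B, had signals of 655 and 881 in aluminium roots, against 400.1 and 569 in control roots, with a mean log2 ratio of 0.67 ± 0.094 (adjusted p = 0.0149). For both genes the 2 aluminium signals were above the 2 control signals. HSFC1 (AT3G24520), the only class C factor of Arabidopsis, was lower: its signals were 1008 and 1497 in aluminium roots, against 1715 and 2432 in control roots. The log2 ratios of -0.77 and -0.70 nearly coincided, with a mean of -0.73 ± 0.093 (adjusted p = 0.0120), the largest fall among the called members. HSFB4 (AT1G46264), also known as SCHIZORIZA and needed for the identity of root ground tissue, was lower with signals of 205 and 310.1 in aluminium roots, against 270.4 and 484 in control roots. Its mean log2 ratio was -0.52 ± 0.11 (adjusted p = 0.0368). Across the arrays the signals of HSFB4 overlapped, though on each array the control signal was the higher one.

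Most root cell type markers on a list of 8 were lower too. Of 8 such markers 6 were lower in aluminium roots and 0 higher, beside 6.48% and 8.25% of all genes tested. Their median log2 ratio was -0.50 (range -2.30 to -0.27). The lower ones included SHR, a regulator of ground tissue identity, at -0.49, and PLT1, a root stem cell factor, at -0.47. SCR, another ground tissue regulator, had -0.27 and did not pass (adjusted p = 0.187). SKOR, a potassium channel of the stele, had the lowest ratio, and CASP1 of the endodermis had -1.74. All 8 were well above background in all 4 channels, and their summed signal was 5197 and 4262 in aluminium roots and 10044 and 8946 in control roots on replicates 1 and 2. In whole roots, fewer cells of a type and less RNA per cell cannot be told apart, and the part of these markers in the HSFB4 value was not tested. Of 8 green shoot markers 0 passed the limma test in either direction (0 at an unadjusted p under 0.05), and their median log2 ratio was 0.0061 (range -0.15 to 0.10).

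**Figure D2:**
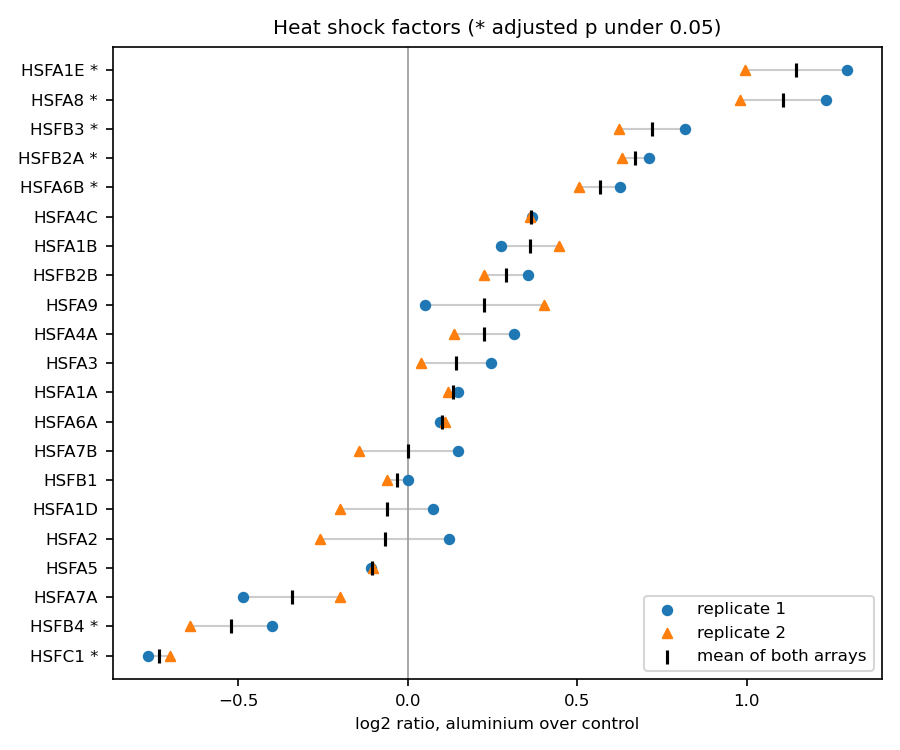
Log2 ratio of aluminium over control of the 21 heat shock factors on replicate 1 (circles) and replicate 2 (triangles), with the mean of both arrays as a bar and an asterisk at an adjusted p under 0.05. HSFA1E and HSFA8 lie near 1 on both arrays, HSFB4 and HSFC1 lie under 0 on both, and HSFA2 straddles 0.

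The HSP70 family held the 2 largest rises among the called members. Of 15 HSP70 genes 3 were higher and 1 lower, with a median log2 ratio of 0.24, and 8 were positive on both arrays. ERD2 (AT1G56410), an HSP70 first found as an early gene of dehydration, had signals of 1991 and 311 in aluminium roots on replicates 1 and 2, against 509 and 150.1 in control roots. Its log2 ratios were 1.97 and 1.05, with a mean of 1.51 ± 0.22 (2.85-fold, adjusted p = 0.0168), and it was the only member at least doubled on both arrays. Across the arrays its signals overlapped, as the control signal of replicate 1 (509) exceeded the aluminium signal of replicate 2 (311). HSC70-2 (AT5G02490), a cytosolic cognate HSP70, had signals of 781 and 574 in aluminium roots, against 213 and 306 in control roots, with a mean log2 ratio of 1.39 ± 0.23 (2.62-fold, adjusted p = 0.0231). For HSC70-3 (AT3G09440), a cytosolic cognate too, the signals were 9021 and 11730.5 in aluminium roots, against 3186 and 7822 in control roots. Its mean log2 ratio was 1.04 ± 0.22 (2.06-fold, adjusted p = 0.0416). In all 3 genes the ratio was larger on replicate 1, by 0.92 to 0.97 on the log2 scale. On replicate 2 alone HSC70-2 had 0.91 and HSC70-3 0.58, more than 1.5 times under the means of both arrays.

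The third cytosolic cognate and the heat-inducible HSP70 genes did not pass. HSC70-1 (AT5G02500), the main constitutive HSP70, had signals of 5961 and 7545 in aluminium roots, against 4659 and 8363 in control roots, with log2 ratios of 0.36 and -0.15 (adjusted p = 0.700). It lies directly beside HSC70-2 in the RefSeq gene order, with mean log2 ratios of 0.10 for HSC70-1 and 1.39 for HSC70-2. HSP70 (AT3G12580), a heat-inducible gene, had signals of 3124 and 1988 in aluminium roots, against 1869 and 2043 in control roots, with log2 ratios of 0.74 and -0.039 (adjusted p = 0.305). HSP70B (AT1G16030), also heat-inducible, had log2 ratios of 0.81 and -0.19 (adjusted p = 0.458), and it is named after its values were seen. On replicate 1 both heat-inducible genes were above 0, and on replicate 2 both were at or under 0. The cytosolic HSP70 genes are close in sequence, and since probe sequences were not used here, how far a probe also binds a relative's RNA is uncertain.

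HSP70 and HSP90 genes whose proteins work in mitochondria or plastids pointed the other way. The grouping by compartment was made after the values were seen and carries no test. Of 6 such genes, 5 were negative on both arrays and 2 passed the test as lower, beside 6.48% of all genes tested. Mean log2 ratios lay between -0.57 and -0.13. mtHSC70-1 (AT4G37910), a mitochondrial HSP70, had signals of 1311 and 919 in aluminium roots on replicates 1 and 2, against 1974 and 1343 in control roots. Its log2 ratios of -0.59 and -0.55 gave a mean of -0.57 ± 0.093 (adjusted p = 0.0212). HSP90.6 (AT3G07770), the mitochondrial HSP90, had signals of 598 and 615 in aluminium roots, against 843 and 831 in control roots, with a mean log2 ratio of -0.47 ± 0.093 (adjusted p = 0.0351). For both genes the control signals lay above the aluminium signals on each array. The plastid HSP90.5 (AT2G04030) had log2 ratios of -0.65 and -0.30 and just missed the threshold (adjusted p = 0.0636). mtHSC70-2 (AT5G09590) and the stromal cpHSC70-1 (AT4G24280) and cpHSC70-2 (AT5G49910), named after their values were seen, had mean log2 ratios of -0.43, -0.29 and -0.13 and did not pass. Of the other 15 HSP70 and HSP90 genes 3 were higher and 0 lower, beside 8.25% and 6.48% of all genes tested. Their mean log2 ratios lay between 0.040 and 1.51.

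**Figure D3:**
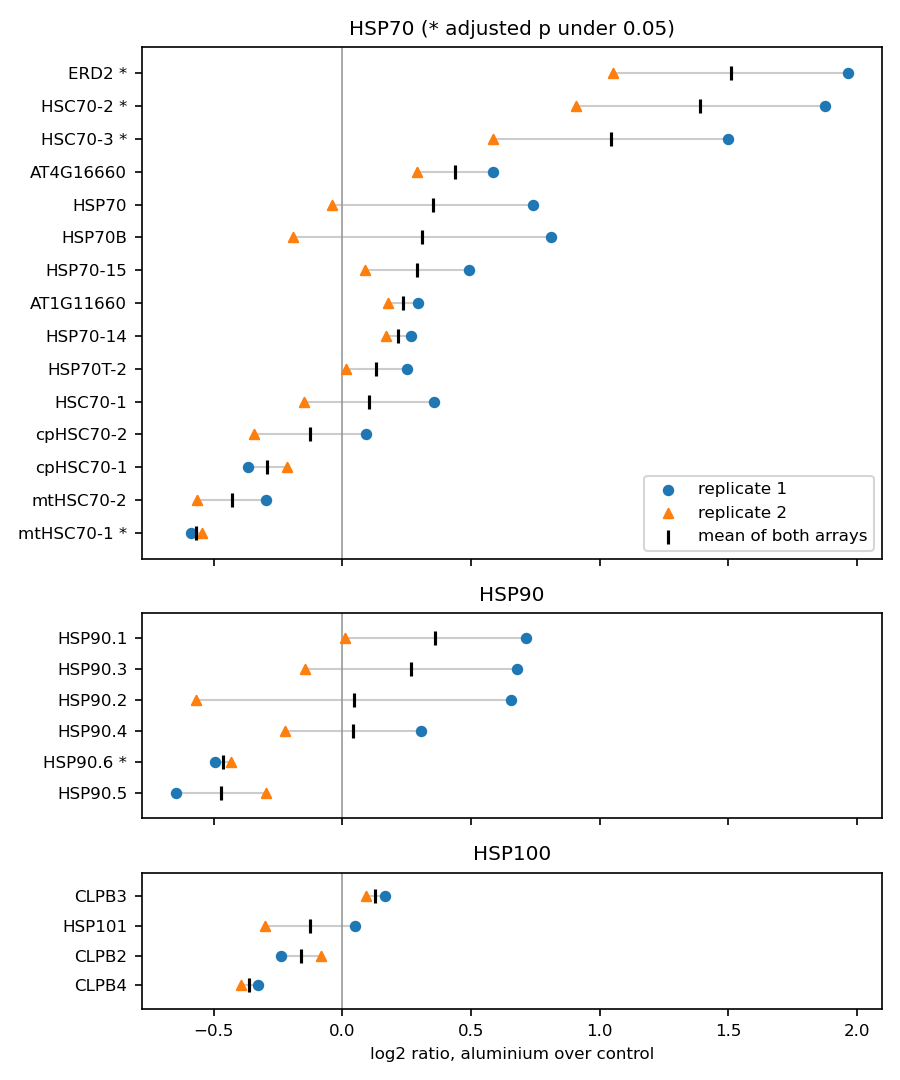
Log2 ratio of aluminium over control of 15 HSP70, 6 HSP90 and 4 HSP100 genes on replicate 1 (circles) and replicate 2 (triangles), with the mean as a bar and an asterisk at an adjusted p under 0.05. The mitochondrial and plastid genes at the bottom of the upper panels lie mostly under 0 with short lines between the arrays, and the cytosolic HSP90 genes span long lines that start near or under 0 on replicate 2.

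HSP90.1 (AT5G52640), the heat-inducible cytosolic HSP90, had signals of 6404 and 2079.7 in aluminium roots on replicates 1 and 2, against 3904 and 2066 in control roots. Its log2 ratios were 0.71 and 0.0098 (adjusted p = 0.257), above 0 on replicate 1 and near 0 on replicate 2. HSP90.4 (AT5G56000), a constitutive cytosolic HSP90, had log2 ratios of 0.30 and -0.23 (adjusted p = 0.896). HSP90.3 (AT5G56010), directly beside HSP90.4 in the RefSeq gene order, had log2 ratios of 0.68 and -0.15. HSP90.2 (AT5G56030), close to HSP90.3 in that order, had 0.66 and -0.57 (both genes are named after their values were seen). The median over the 6 HSP90 genes was 0.48 on replicate 1 and -0.26 on replicate 2, so the direction of the family as a whole rests on the array. HSP90.2, HSP90.3 and HSP90.4 are near copies of each other, and how well their probes tell them apart is uncertain.

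Of the 4 HSP100 genes 0 passed the limma test, and 1 was lower at an unadjusted p under 0.05. HSP101 (AT1G74310), the cytosolic disaggregase needed for heat tolerance, had signals of 187 and 189 in aluminium roots, against 181 and 233 in control roots, with log2 ratios of 0.051 and -0.30 (adjusted p = 0.556). CLPB4 (AT2G25140), its mitochondrial relative, had log2 ratios of -0.33 and -0.40 (adjusted p = 0.0644). CLPB3 (AT5G15450), in plastids, had 0.17 and 0.090 (adjusted p = 0.429), and CLPB2 (AT4G14670) had -0.24 and -0.085 (adjusted p = 0.342). At a mean of -0.36 CLPB4 lay on the same side as the mitochondrial HSP70 and HSP90 genes, though it was not called. The plastid CLPB3 lay on the other side of 0.

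Small heat shock protein genes, the most strongly heat-induced chaperone class of plants, had a median near 0. Of 27 members 24 were tested. Of these 1 was higher (4.17%) and 0 lower, beside 8.25% and 6.48% of all genes tested, and 1 and 0 had an unadjusted p under 0.05. The median log2 ratio was -0.0066, and 20 of the 23 genes that did not pass had a mean within 0.25 of 0. The called gene was AT2G27140, annotated as similar to a class I small heat shock protein of carrot, with signals of 3706 and 3402 in aluminium roots on replicates 1 and 2, against 2514 and 2499 in control roots. Its mean log2 ratio was 0.50 ± 0.10 (1.42-fold, adjusted p = 0.0313), and aluminium signals exceeded control signals without overlap. The next farthest from 0 by the smaller of both ratios were the class I HSP17.4-CI (AT3G46230) at 0.18 and 0.18, the class II HSP17.7-CII (AT5G12030) at 0.12 and 0.30 and the related AT5G54660 at -0.14 and -0.17. None of these 3 passed (adjusted p = 0.261, 0.236 and 0.338). HSP17.7-CII had a mean log2 ratio of 0.21, but 1.07 with the scanner software's ratios, 0.73 without the normexp offset and 0.39 with the series matrix values, in each without passing. The signal of HSP17.7-CII was not well above background in every channel. Signs on the arrays were opposite in 14 of the 24 genes, or 58.3%, beside 28.6% of all genes tested.

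The 3 untested small heat shock protein genes were HSP23.6-M (AT4G25200) of mitochondria, HSP22.0-ER (AT4G10250) of the endoplasmic reticulum and the class II HSP17.6-CII (AT5G12020). Each was well above background in neither channel of at least 1 array, so their log2 ratios are not given. For HSP22.0-ER the signals were 60.7 and 80.5 in aluminium roots, against 64.2 and 69.7 in control roots, which is close to the lowest signals that counted as well above background, 63.6 to 69.1. In all, 22 of the 27 genes were well above background in all 4 channels and the other 5 in 1 to 3 channels.

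J-proteins bring substrates to HSP70 and trigger its ATPase, and they form the largest class with 92 members, of which 91 were tested. Here 6 were higher (6.59%) and 1 lower (1.0989%) in limma's test, beside 8.25% and 6.48% of all genes tested. Both shares were under those of all genes, a difference that was not tested. The median log2 ratio of the class was 0.021. AT1G76700, similar to the yeast J-protein CAJ1, was the highest of those called, with signals of 837 and 1036 in aluminium roots on replicates 1 and 2, against 492 and 568 in control roots. Its mean log2 ratio was 0.82 ± 0.095 (1.76-fold, adjusted p = 0.00978). AT1G21080, also annotated as similar to CAJ1, had signals of 2053 and 2868 in aluminium roots, against 1334 and 1915 in control roots, with a mean of 0.60 ± 0.093 (adjusted p = 0.0184). A further CAJ1-like gene, AT1G77020, was the J-protein gene that was lower, with signals of 268 and 362 in aluminium roots, against 351 and 483 in control roots, with a mean of -0.40 ± 0.092 (adjusted p = 0.0484). Genes with this one annotation therefore went in both directions. The signals of AT1G77020 overlapped across the arrays, though the control signal was the higher one on each.

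J2 (AT5G22060), a cytosolic partner of HSP70 of the classical DnaJ type, had signals of 2465 and 3253 in aluminium roots, against 1451 and 2386 in control roots. Its log2 ratios were 0.76 and 0.45 (mean 0.61 ± 0.12, adjusted p = 0.0318). Its close relative J3 (AT3G44110), named after its values were seen, had 0.46 and -0.13 and did not pass (adjusted p = 0.565). J11 (AT4G36040), a small plastid J-protein, and DJC66 (AT3G13310), annotated as similar to it, were both higher. J11 had log2 ratios of 0.50 and 0.36 (adjusted p = 0.0471) and DJC66 of 0.73 and 0.39 (adjusted p = 0.0400). AT1G56300 had 0.38 and 0.51 (adjusted p = 0.0434), with ratios on the same side and of like size on both arrays.

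Farthest from 0 without passing, by the smaller of both ratios, were AT4G02100 at 0.31 and 0.71 and AT5G22080 at 0.37 and 0.28 above 0, and AT2G47440 at -0.32 and -0.36 below 0. AT4G02100 and AT2G47440 both carry a tetratricopeptide repeat next to the J domain per the array's annotation. P58IPK (AT5G03160), annotated as the homologue of a mammalian J-protein and named after its values were seen, had log2 ratios of 1.57 and -0.054. One of its aluminium spots and one of its control spots were saturated, the only saturated spots among the members. Whether both lay on the same array is not given here, and ratios that such a spot enters are uncertain. The untested J-protein gene was AT5G37760, well above background in 0 of 4 channels.

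**Figure D4:**
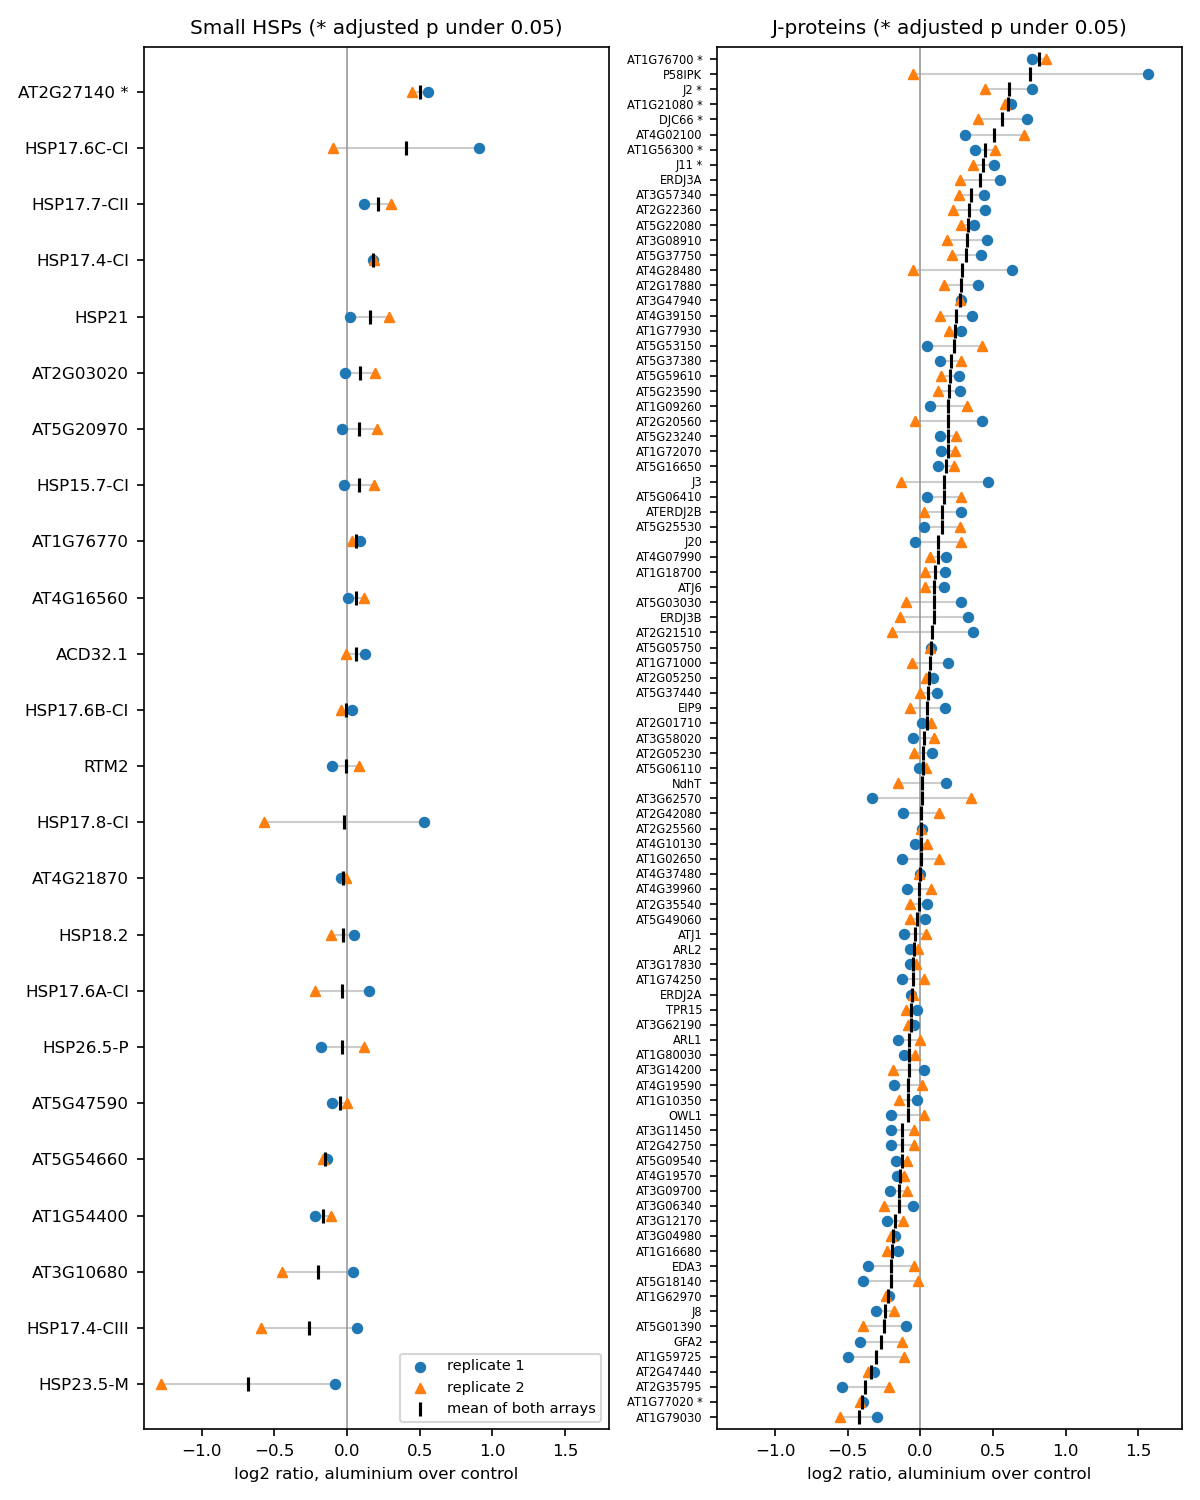
Log2 ratio of aluminium over control of 24 small heat shock protein genes (left) and 91 J-protein genes (right) on replicate 1 (circles) and replicate 2 (triangles), ordered by the mean (bar), with an asterisk at an adjusted p under 0.05. The means of most genes in both panels lie within 0.25 of 0, and the longest lines between the arrays belong to P58IPK, HSP23.5-M, HSP17.8-CI and HSP17.6C-CI.

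The remaining 11 members are proteins with a looser likeness to heat shock proteins or factors, of which 10 were tested and none passed (1 higher and 1 lower at an unadjusted p under 0.05). The lowest was SMXL2 (AT4G30350), an HSP101-like protein of karrikin signalling, with log2 ratios of -0.31 and -0.59 (adjusted p = 0.0600). The other 4 HSP101-like SMXL genes, named after their values were seen, are repressors or regulators in karrikin and strigolactone signalling and phloem development. SMAX1 (AT5G57710), SMXL3 (AT3G52490), SMXL8 (AT2G40130) and SMXL7 (AT2G29970) had mean log2 ratios of 0.25, 0.25, 0.13 and -0.17.

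**Figure D5:**
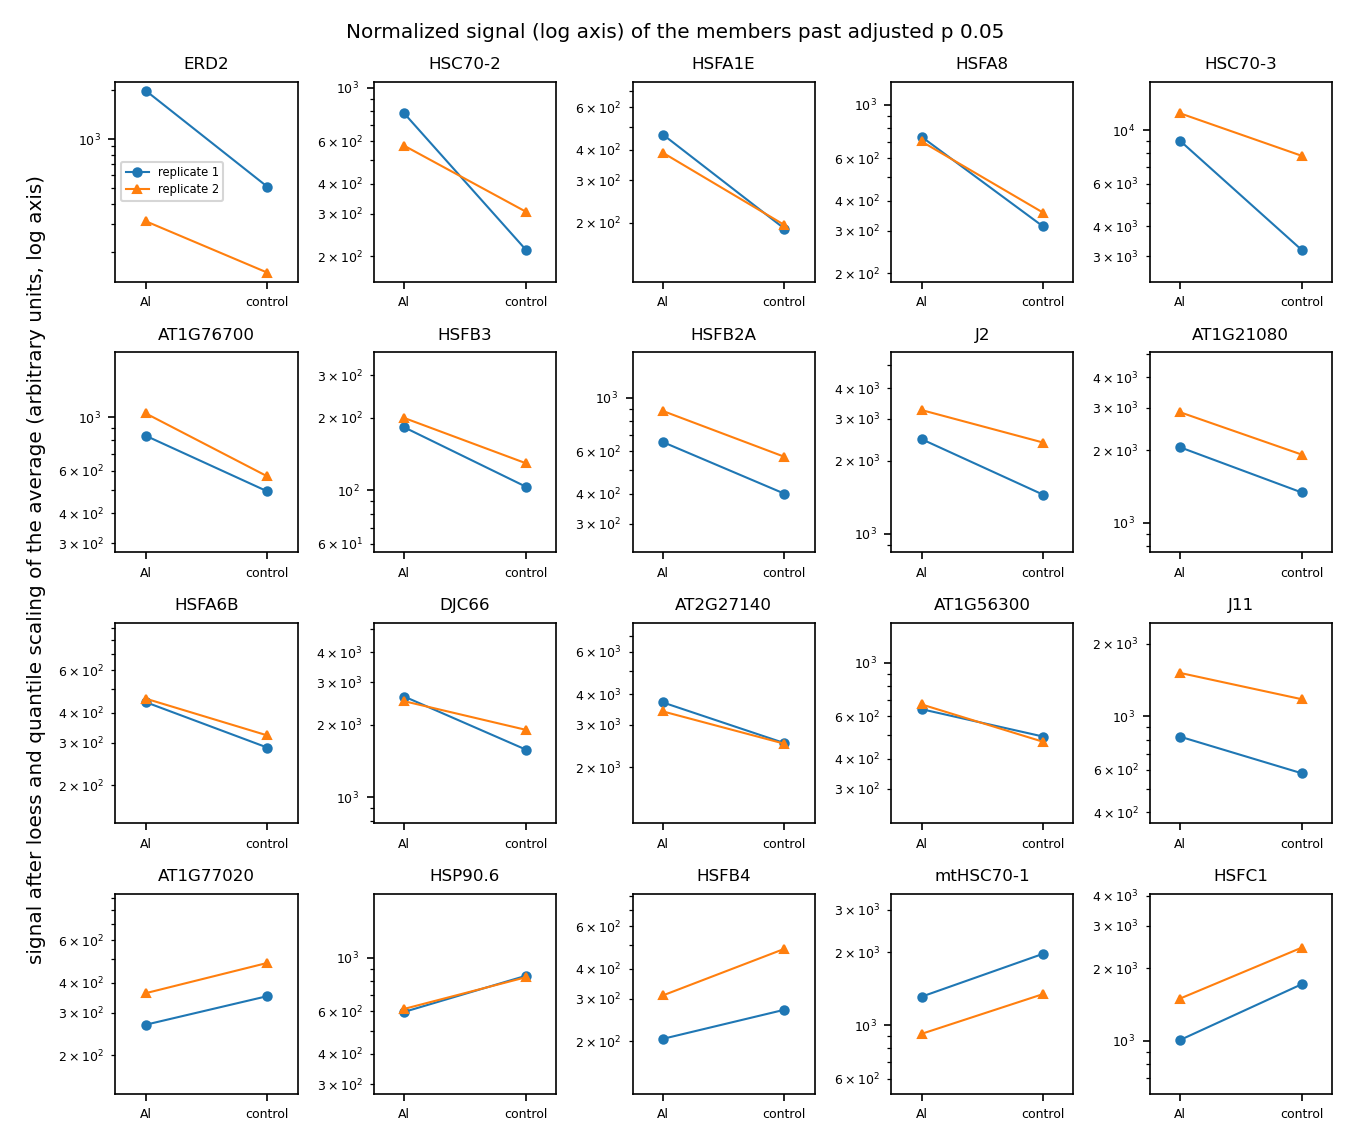
Normalized signal, in arbitrary units on a log axis, of the 20 heat shock genes with an adjusted p under 0.05 in aluminium roots (Al, left) and control roots (right), with 1 line for each array and genes ordered by mean log2 ratio. Lines of both arrays run the same way in each panel, which the test of 2 ratios nearly requires. In ERD2, HSC70-2 and HSC70-3 the line of replicate 1 is the steeper one.

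Genes that work beside heat shock proteins were counted from a list of 27 regulators, co-chaperones and chaperonins, of which 23 had a probe and were tested. In aluminium roots 4 were higher, 5 lower and 14 did not pass, with a median log2 ratio of 0.0027. Over all genes tested 8.25% were higher and 6.48% lower. These 9 calls depend on the processing as well: 3 were left with median centring (DREB2C, DREB2B and ROF2), 1 without the normexp offset and 1 with the scanner software's ratios (DREB2C in both), and 0 with the series matrix values. All 9 genes kept their direction in these settings. The DREB2 factors, activators of drought and heat genes, divided. DREB2C had signals of 1049 and 1166 in aluminium roots, against 272 and 412 in control roots, with log2 ratios of 1.95 and 1.4998 (adjusted p = 0.00438). DREB2B had log2 ratios of 1.03 and 0.60 (adjusted p = 0.0213). DREB2A had -0.77 and -0.71 and was lower (adjusted p = 0.0116), with signals of 256 and 626 in aluminium roots, against 435 and 1025 in control roots. So of these 3 related factors 2 were higher and 1 lower, and in each the arrays were of one sign.

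Among co-chaperones, CHIP, a ubiquitin ligase that takes clients from HSC70, was higher at 0.69 and 0.73 (adjusted p = 0.0128). SGT1B, an HSP90 partner in immune receptor assembly, was higher at 0.49 and 0.44 (adjusted p = 0.0352). ROF2, an immunophilin induced by heat, was lower at -0.58 and -0.80 (adjusted p = 0.0177). All 3 organelle chaperonin genes on the list were lower in the limma test, and none of these 3 passed in the 4 settings just named. HSP60, the mitochondrial chaperonin, had signals of 1298 and 1751 in aluminium roots, against 2292 and 2609 in control roots, with log2 ratios of -0.82 and -0.58 (adjusted p = 0.0183). Its co-chaperonin CPN10 had log2 ratios of -0.43 and -0.60 (adjusted p = 0.0331), and CPN20 of plastids had -0.59 and -0.66 (adjusted p = 0.0174). These 3 genes lay on the same side of 0 as most values of the mitochondrial and plastid HSP70 and HSP90 genes. Not all organelle chaperones did: the plastid CLPB3 had 0.17 and 0.090 without passing. The plastid J-protein J11 was called higher at 0.50 and 0.36.

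The arrays differed in the size of some ratios. In 18 of 171 members, or 10.5%, the log2 ratio on replicate 1 exceeded that on replicate 2 by over 0.5, and in 1 member, or 0.585%, it was the other way. Over all genes tested these shares were 4.91% and 2.46%. The 18 genes were 6 HSP70, 4 HSP90, 4 small heat shock protein and 4 J-protein genes, and no factor was among them. Among them were 10 of the 15 HSP70 and HSP90 genes left after the mitochondrial and plastid ones. All 15 had positive ratios on replicate 1 (0.25 to 1.97, median 0.66), and 9 on replicate 2 (-0.57 to 1.05, median 0.015). The small heat shock proteins HSP17.6C-CI (AT1G53540) at 0.91 and -0.10, HSP17.8-CI (AT1G07400) at 0.53 and -0.57, HSP17.4-CIII (AT1G54050) at 0.068 and -0.59 and HSP23.5-M (AT5G51440) at -0.083 and -1.28 also lay apart, and all 4 are named after their values were seen. Among the 20 called members 3 lay apart by over 0.5, namely ERD2, HSC70-2 and HSC70-3. Whether the gap goes with the dye orientation or with the plants cannot be told apart.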

How the data were processed

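Total RNA of roots (1 µg per labelling) was hybridised to 2 two-colour Agilent arrays, per the labels' protocols. The scanner files deposited by the authors hold raw spot intensity for either channel, made with Feature Extraction 8.1.1.1 (replicate 1) and 7.1.1 (replicate 2) per the file headers, while the submitters' processing notes name 9.5.1.1. They also hold the software's log10 ratios, per the file headers. The deposited series matrix holds log2 values for 20346 probes. Against the scanner ratios (r = 0.998 and 0.887) these run as aluminium over control, with medians of -0.0103 and -0.0112, and their normalization and centring are not given in the sources used here.

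Normexp (offset 50) was applied to mean intensity and median background, then loess within arrays (control spots at weight 0), in limma 3.58.1 under R 4.3.3. Ratios were turned to aluminium over control. Signals per channel were also scaled with limma's quantile method for average intensity (Aquantile). Probes with an outlier mark (108), those well above background in neither channel of an array (1151) and those with no locus shared by both layouts (1047) were left out. The median signal over background was 4.60 to 8.62, and 94.4 to 96.4% of probes were well above background per channel. Over the genes tested the arrays correlated at r = 0.799, a description across genes that share both arrays. The number of arrays limits the precision: lmFit and eBayes tested 2 ratios against 0, two-sided, with 1 residual and 4.06 prior degrees of freedom and Benjamini-Hochberg adjustment over 19194 genes. A dye or slide term could not be fitted.

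In data simulated for this comparison (10 runs, 200 changed of 19194 genes), 3.60%, 85.6%, 99.4% and 99.8% of genes changed by 0.5, 1, 2 and 3 on the log2 scale were recovered, and 6.91% of those called were unchanged. The real data gave many more calls (1583 higher and 1243 lower), which makes the Benjamini-Hochberg cut-off less strict than in the simulation. The simulation also held no dye or array effect. These shares therefore do not carry over to the calls made here. Symbols come from the array's descriptions and from RefSeq (assembly TAIR10.1), which also gave the gene order. The files name no build, and no coordinates are given.

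The members, classes, partner list, markers and rules were chosen with earlier results of these data known. Genes named are every called member, the 4 of each class of chaperones or factors farthest from 0 by the smaller of both ratios, the 2 uncalled J-protein or other genes farthest from 0 on each side, every called partner, and HSFA2, HSFA1A, HSFA1B, HSFA1D, HSFA1E, HSP101, HSP90.1, HSC70-1 and HSP70. Other genes are marked in the text. Alternatives covered the background correction, the normalization, the series matrix, the filters and leaving out each array.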

Additional observations from a re-analysis of the deposited data

How the results depend on the processing

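Dropping the filter on dim probes, asking for signal above background in all channels or keeping outlier marks left all 20 called members called, except that AT1G77020 was lost when outlier marks were kept. In place of 15 higher and 5 lower members, median centring gave 7 and 0, an offset of 0 gave 4 and 0, the scanner software's ratios 1 and 0, and the series matrix 0 and 0. Over all genes, 1583 higher and 1243 lower became 889 and 586, 402 and 226, 170 and 118, and 0 and 0 in the same order (2552 and 2521 of the last at an unadjusted p under 0.05). The members still called were ERD2, HSC70-2, HSC70-3, HSFA1E, HSFA8, HSFB3 and AT1G76700 with median centring, ERD2, HSFA1E, HSFA8 and HSFB3 with an offset of 0, and HSFA1E with the scanner ratios. Each called member with a value kept its direction in each setting and on each array alone. Keeping it on each array is nearly required of a gene called from 2 ratios. HSFB3 moved by over 1.5 times, to 1.12 without the offset and 1.18 with the scanner ratios and with the series matrix. Among other named genes, ROF2 (-0.69) became -1.16, -1.27 and -1.55, HSP17.7-CII (0.21) 0.73, 1.07 and 0.39, and HSP17.4-CI (0.18) 0.35, 0.40 and 0.44 in those settings. CLPB2 (-0.16) became -0.27 without the offset and -0.36 with the scanner ratios. With median centring HSFA2 (-0.068) became 0.021, HSC70-1 (0.10) 0.032, CLPB3 (0.13) 0.064 and HSFA1A (0.13) 0.086. With the series matrix HSFA1A became 0.26 and HSP101 (-0.13) -0.21, and with the scanner ratios HSP90.4 (0.040) became 0.026. The cause of the lost calls was not tested. The factor median of 0.14 became 0.11 with median centring, 0.24 with an offset of 0, 0.23 with the scanner ratios and 0.26 with the series matrix. The HSP100 median of -0.14 became -0.22 with an offset of 0 and -0.28 with the scanner ratios, the HSP70 median of 0.24 became 0.15 and the HSP90 median of 0.042 became -0.013 with median centring, and the J-protein median of 0.021 became 0.036 with an offset of 0. On 1 array alone, the medians ranged from 0.12 to 0.15 for factors, 0.015 to 0.36 for HSP70, -0.26 to 0.48 for HSP90, -0.19 to -0.094 for HSP100, -0.00089 to 0.028 for small heat shock proteins and 0.010 to 0.031 for J-proteins. With 1 array there is no test, so calls could not be counted. Both treatments share each array, so the limma test of the ratios is already paired. The median of all genes lay between -0.0021 and 0.0052 over these settings with both arrays.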
